A study of Mus musculus with 12 samples.

Results

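The genes of the TNF and NF-kB pathway were followed through their accessible chromatin regions in blood stem and progenitor cells of mice with and without Phf6. The list held 37 genes, and a region was given to a gene when it overlapped the gene's protein-coding RefSeq body, or otherwise when that body was the nearest one within 100 kb. All 37 genes had at least 1 region, 467 regions in all of the 188262 in the deposited table, and all 467 passed the filter on low counts. Of these, 255 overlapped the gene and 212 were given to it by distance. By place, 75 lay within 1 kb of an end of the gene body ("gene end"), 196 elsewhere in the gene body and 196 between genes. Nfkb1 had 48 regions, Tnfaip8 44, Tnfaip3 34, Nfkbiz 30 and Traf3 28, whereas Nfkbib had 1. Regions of 1 gene are not independent of each other, and a region near a gene is not thereby shown to act on it.

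ATAC-seq, in which the transposase Tn5 cuts open chromatin, was run on long-term haematopoietic stem cells (LT-HSC) and multipotent progenitors (MPP) of male mice, 3 libraries for each of 4 groups. Wild-type (WT) mice were Phf6f/Y Rosa26+/+, carrying floxed Phf6 without any Cre. Knockout (KO) mice were Phf6-/Y Rosa26+/Cre-ERT2, with Phf6 deleted and a tamoxifen-activated Cre at Rosa26. Per the labels, 20000 LT-HSC were sorted per library from separate mice 8 weeks after tamoxifen, and reads were 75 nt in pairs. The sources used here do not say how MPP cells were obtained, or whether same-numbered libraries of both populations share a mouse. For MPP the p-values therefore measure the spread between these libraries, which may be technical. Every KO and no WT library carries Cre-ERT2, so its effect and that of losing Phf6 cannot be told apart.

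Between 22665988 and 48547234 counts were assigned to regions per library. None of the 6 regions over Phf6 itself showed a loss of signal at an adjusted p under 0.05 that would check the labels. Its strongest gene-end region lay at 25.3 to 27.3 CPM (counts scaled to a common library size by the TMM method of edgeR) in WT LT-HSC and at 26.5 to 28.8 CPM in KO LT-HSC. In MPP the region lay at 30.6 to 32.4 CPM in WT and 27.7 to 29.6 CPM in KO. These did not overlap, but the difference did not pass (log2 fold change -0.14, adjusted p = 0.19, edgeR quasi-likelihood test). A gene-body region of Phf6 was higher in KO MPP (0.79, adjusted p = 0.00487, same test). The sources used here do not give the deleted stretch. Summed over their gene-end regions, 8 LT-HSC marker genes stood at 273 to 298 CPM in the LT-HSC libraries against 211 to 226 CPM in the MPP libraries. MPP marker genes stood at 91.5 to 97.8 CPM in LT-HSC against 149 to 164 CPM in MPP, with no gene-end region for Dntt, so both labels matched the markers.

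In the canonical pathway, TNF and related ligands bind receptors whose adaptors and ubiquitin ligases activate the IkB kinases. These phosphorylate IkB proteins, which otherwise hold NF-kB dimers in the cytoplasm, and the freed dimers bind promoters and enhancers. Many of the genes they induce encode inhibitors of the pathway, such as IkB alpha and A20, which switch the signal off again. In blood stem cells the pathway is known for its part in inflammatory responses and survival.

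The promoter sequences of 6 genes are printed to show promoters with different calls: Tnfaip3, Rel and Nfkbib were called in both populations, Nfkb2 and Nfkbie in MPP, and Nfkbia in neither. Each is the RefSeq window (GRCm38.p6) from 250 bases before to 50 bases after a gene start, on the gene's strand, with matches to the NF-kB consensus on either strand in capitals. Tnfaip3 (chr10:19015361-19015660, minus strand) has matches 125 and 12 bases before the start. Rel (chr11:23770920-23771219, minus strand) has 1 match 92 bases before it, and Nfkb2 (chr19:46304487-46304786, plus strand) has matches 39 and 11 bases before it. Nfkbie (chr17:45555450-45555749, plus strand) has 1 match 106 bases before the start, and Nfkbia (chr12:55492598-55492897, minus strand) has 1 at 29 bases. Nfkbib (chr7:28766595-28766894, minus strand) has none.
Tnfaip3: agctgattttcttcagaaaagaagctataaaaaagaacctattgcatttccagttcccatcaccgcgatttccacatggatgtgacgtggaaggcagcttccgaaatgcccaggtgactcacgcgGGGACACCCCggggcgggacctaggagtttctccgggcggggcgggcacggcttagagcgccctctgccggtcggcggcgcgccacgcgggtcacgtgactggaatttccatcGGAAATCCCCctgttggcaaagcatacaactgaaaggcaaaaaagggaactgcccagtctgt
Rel: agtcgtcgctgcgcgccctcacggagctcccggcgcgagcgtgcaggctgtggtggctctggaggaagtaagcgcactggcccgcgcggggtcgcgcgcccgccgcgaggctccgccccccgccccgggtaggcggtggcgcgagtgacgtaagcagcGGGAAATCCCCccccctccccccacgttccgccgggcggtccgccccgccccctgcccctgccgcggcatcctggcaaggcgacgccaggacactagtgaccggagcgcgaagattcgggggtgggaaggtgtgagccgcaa
Nfkb2: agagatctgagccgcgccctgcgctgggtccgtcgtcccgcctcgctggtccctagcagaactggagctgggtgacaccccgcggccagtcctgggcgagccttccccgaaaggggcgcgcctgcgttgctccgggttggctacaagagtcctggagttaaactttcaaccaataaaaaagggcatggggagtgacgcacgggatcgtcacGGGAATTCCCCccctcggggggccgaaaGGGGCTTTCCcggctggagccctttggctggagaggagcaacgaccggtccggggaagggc
Nfkbie: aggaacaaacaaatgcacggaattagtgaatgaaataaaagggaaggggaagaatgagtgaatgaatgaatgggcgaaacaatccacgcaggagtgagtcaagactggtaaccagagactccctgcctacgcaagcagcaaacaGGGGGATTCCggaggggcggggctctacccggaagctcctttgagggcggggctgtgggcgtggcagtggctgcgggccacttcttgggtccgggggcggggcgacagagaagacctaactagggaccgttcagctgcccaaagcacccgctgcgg
Nfkbia: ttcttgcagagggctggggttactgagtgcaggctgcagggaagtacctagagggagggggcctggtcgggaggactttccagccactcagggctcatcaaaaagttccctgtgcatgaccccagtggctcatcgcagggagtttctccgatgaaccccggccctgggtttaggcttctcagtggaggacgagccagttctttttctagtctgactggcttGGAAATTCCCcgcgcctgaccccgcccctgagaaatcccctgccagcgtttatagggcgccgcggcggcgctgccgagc
Nfkbib: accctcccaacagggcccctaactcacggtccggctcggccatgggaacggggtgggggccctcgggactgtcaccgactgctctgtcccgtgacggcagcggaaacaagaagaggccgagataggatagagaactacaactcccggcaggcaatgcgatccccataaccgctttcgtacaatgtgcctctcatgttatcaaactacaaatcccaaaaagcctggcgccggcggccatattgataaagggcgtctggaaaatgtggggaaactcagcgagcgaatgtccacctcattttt

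The regions over the Tnfaip3, Rel and Nfkbib windows were more accessible in KO than in WT cells of both populations, those over the Nfkb2 and Nfkbie windows passed the test in MPP alone, and the region over the Nfkbia window passed in neither. Promoter windows were at hand for 29 of the 37 genes. The NF-kB consensus occurred in 14 of the 36 windows of these genes (38.9%), from 12 genes, against 8.46% of all 32851 windows. The list includes genes chosen because NF-kB induces them, so this larger share is not an independent result. Some windows of the same gene overlap, and a match shared by overlapping Nfkb2 windows was counted in both. The AP-1 motif TGANTCA occurred in 4 of the 36 windows (11.1%), those of Ikbke, Nfkb2, Nfkbie and Tnfaip3, against 7.81% of all windows. A match describes the letters only. Of the 28 regions that covered a RefSeq promoter of their gene, 5 were called higher in KO LT-HSC (17.9%, against 11.2% of all promoter regions and 3.28% of all tested regions) and 7 in KO MPP (25%, against 14.3% and 5.08%). These calls fell on 8 promoter regions, of which 4 had an NF-kB match. Of the other 20 promoter regions, which were called in neither, 8 had one.

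Across the whole list, KO LT-HSC had more regions of higher accessibility than of lower. With edgeR's quasi-likelihood test and Benjamini-Hochberg adjustment over 186373 regions, 35 of the 467 regions were higher (7.49%) at an adjusted p under 0.05, in 19 genes. The share among all tested regions was 3.28%. Only 3 were lower (0.642%, against 1.47% of all tested), at Map3k8, Nfkbia and Nfkbiz. In KO MPP, 43 regions were higher (9.21%, against 5.08% of all tested), in 20 genes, and 7 were lower (1.5%, against 3.61%), in 7 genes. The median log2 fold change of the 467 regions was 0.07 in LT-HSC and 0.09 in MPP, against -0.0013 and -0.010 over all tested regions. Scaling by library totals moved these medians to 0.02 and 0.06, with 53.8% and 59.5% of the regions above 0 in place of 64.9% in both. A fit on gene-end regions alone gave the 75 gene-end regions of the list medians of -0.0031 and 0.05, against 0.06 and 0.14 for the same regions in the fit on all regions.

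Summed over the 467 regions, accessibility was 3152, 3186 and 3119 CPM in the WT LT-HSC libraries and 3447, 3429 and 3397 CPM in KO LT-HSC. The KO libraries all lay above the WT ones. In MPP it was 3637, 3771 and 3440 CPM in WT and 3909, 3882 and 3866 CPM in KO, again without overlap. A separate list of other pathway genes, described below, also separated in LT-HSC, at 2568 to 2614 CPM in WT and 2667 to 2736 CPM in KO. In MPP that list overlapped, at 2924 to 3120 and 3107 to 3178 CPM. These sums depend on the scaling. The TMM factors were 1.02 to 1.04 in WT LT-HSC and 0.982 to 0.991 in KO LT-HSC. In these bulk libraries, more cells of a type with open sites and more opening per cell cannot be told apart.

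Over the whole genome, the share of signal at gene ends separated KO from WT in LT-HSC, while the genotypes overlapped in MPP. Gene-end regions of all genes held 37.8% to 38.9% of counts in WT LT-HSC and 39.2% to 39.6% in KO LT-HSC. In MPP they held 39.16% to 41.02% in WT and 40.97% to 41.44% in KO. With this share as a covariate, the higher calls fell from 35 to 7 in LT-HSC and from 43 to 10 in MPP. The median log2 fold changes of the 467 regions were then 0.06 and 0.08, with 58.9% and 60.2% of regions above 0. Because the share itself separated the genotypes in LT-HSC, this fit cannot tell share and genotype apart there. Within each class of region, the list had a larger share of higher calls than all regions of that class. In LT-HSC, 14.7% of the gene-end regions of the list were called higher against 8.24% of all gene-end regions, 7.14% against 2.68% in gene bodies, and 5.10% against 2.40% between genes. In MPP these shares were 16.0% against 11.4%, 11.2% against 4.49%, and 4.59% against 3.78%.

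The counts also changed when 1 library was left out, a fit that has fewer libraries to test with. Without KO LT-HSC library 2, 14 LT-HSC regions were called higher, and leaving out KO library 1 or 3 or WT library 1 or 2 of LT-HSC gave 18, 19, 21 and 19. Without WT LT-HSC library 3 the count was 30. Without KO MPP library 3, 21 MPP regions were called higher, and without KO library 2 or WT library 1 of MPP 24 and 27. Leaving out WT library 2 or 3 or KO library 1 of MPP gave 35, 31 and 36. The 3 lower LT-HSC calls became 1 without WT LT-HSC library 2 and 0 without KO LT-HSC library 2. The 7 lower MPP calls became 4, 1, 4, 0 and 2 without WT MPP library 1, 2 or 3 or KO MPP library 2 or 3. Scaling by library totals gave 20 higher and 5 lower regions in LT-HSC, so that 80.0% of calls were higher in place of 92.1%.

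Several marker lists also stood higher in KO libraries, that of the LT-HSC itself included (273 to 276 CPM in WT and 288 to 298 CPM in KO LT-HSC). The sum of the MPP list went the other way in its own population, at 159 to 164 CPM in WT and 149 to 154 CPM in KO MPP. Flt3 stood at a mean of 71.1 and 59.6 CPM there, and Cd34 and Satb1 also had lower means in KO MPP. Cd48 and Mpo had higher means in KO MPP, so the genes of this list did not move together. In LT-HSC the range of the MPP list overlapped, at 93.8 to 97.8 and 91.5 to 95.1 CPM. Summed over gene-end regions, macrophage and monocyte markers lay at 27.0 to 30.6 CPM in WT LT-HSC and 30.6 to 31.0 CPM in KO LT-HSC, and at 39.5 to 43.9 and 44.4 to 45.5 CPM in WT and KO MPP. Within that list Cd68 and Cd14 had the higher means in KO cells of both populations, while Csf1r (1.31 and 1.09 CPM in WT and KO LT-HSC) and Adgre1 (1.37 and 0.89 CPM) had lower ones. Erythroid markers lay at 23.2 to 26.0 and 27.2 to 31.9 CPM in LT-HSC and at 14.1 to 15.8 and 18.9 to 19.2 CPM in MPP, with no gene-end region for Klf1 or Alas2. Granulocyte markers overlapped between genotypes, at 14.8 to 16.5 and 15.0 to 16.2 CPM in LT-HSC. Endothelial markers lay at 60.7 to 70.3 and 69.8 to 70.4 CPM in LT-HSC and at 38.8 to 43.4 and 44.3 to 48.4 CPM in MPP, and natural killer cell markers at 20.2 to 23.1 and 23.2 to 24.4 CPM in LT-HSC and at 18.8 to 20.1 and 21.0 to 21.8 CPM in MPP. The last list moved through Eomes (means of 19.6 and 22.2 CPM in WT and KO LT-HSC), whereas Gzmb (1.61 and 0.91 CPM) and Klrb1c (0.76 and 0.42 CPM) were lower in KO and Ncr1 had no gene-end region. T cell markers (52.7 to 56.3 CPM in all LT-HSC libraries, no gene-end region for Cd3g) and B cell markers (16.2 to 17.5 CPM) overlapped between genotypes in LT-HSC. The part of these cells in the results was not tested.

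**Figure D1:**
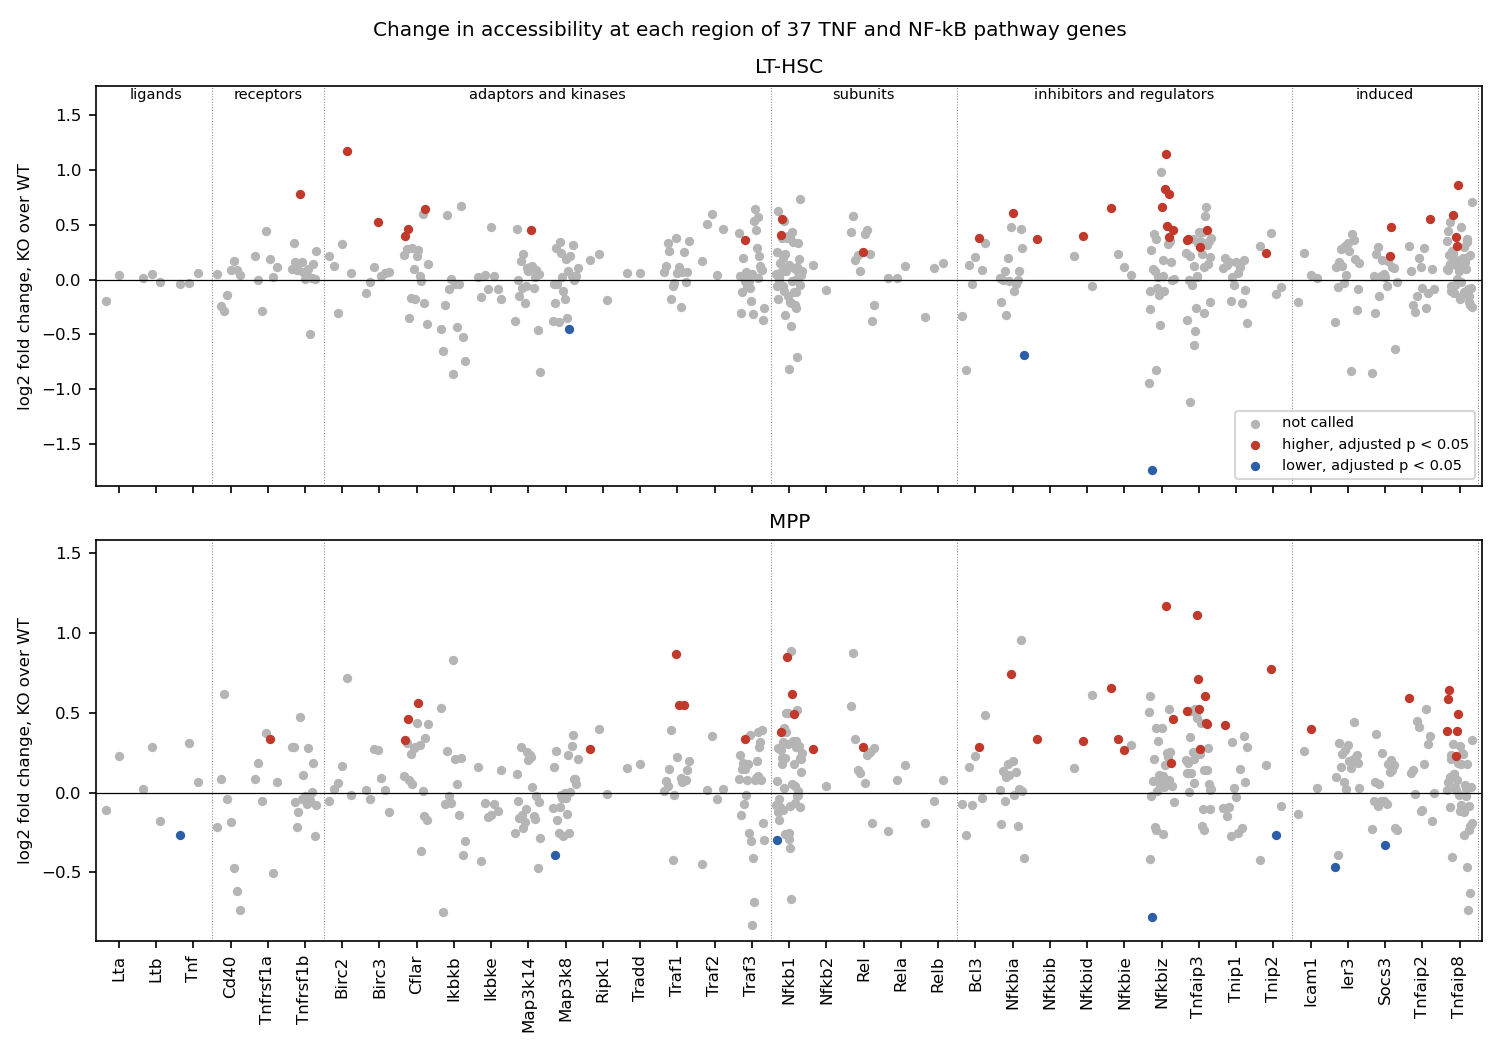
Each point is 1 of the 467 regions, placed by gene and by role along the horizontal axis, with the log2 fold change of KO over WT on the vertical axis for LT-HSC (top) and MPP (bottom). Red points (35 and 43) are called higher and blue points (3 and 7) lower at an adjusted p under 0.05. The inhibitors and regulators hold 17 and 20 of the red points.

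The inhibitors and regulators of NF-kB held about as many higher calls as the other roles together. Of their 115 regions, 17 were higher in KO LT-HSC (14.8%) and 20 in KO MPP (17.4%), with calls in 8 and 9 of the 9 genes. Their median log2 fold changes were 0.12 and 0.15. In each population 2 of these regions were lower. Of the 67 regions of the NF-kB subunits, 3 were higher in LT-HSC (4.48%) and 6 in MPP (8.96%). Of the 148 regions of adaptors and kinases, 7 were higher in LT-HSC (4.73%) and 8 in MPP (5.41%), near the 3.28% and 5.08% of all tested regions. Whether these shares differ between roles was not tested.

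Nfkbib encodes IkB beta, an inhibitor that retains NF-kB dimers in the cytoplasm. Its single region, over the promoter (chr7:28766375-28766853), stood at 56.3, 53.8 and 52.1 CPM in WT LT-HSC and 69.5, 67.8 and 72.3 CPM in KO LT-HSC. In MPP it stood at 67.6, 66.0 and 57.2 CPM in WT and 78.7, 81.6 and 80.9 CPM in KO. In both populations every KO library was above every WT library. The log2 fold change was 0.37 ± 0.06 (SE, adjusted p = 0.000512) for LT-HSC, with 0.34 ± 0.06 (adjusted p = 0.000626) for MPP, and both calls held under each alternative run, with adjusted p up to 0.0307 and 0.0325. The region also overlaps Sirt2, so the signal cannot be given to 1 of these genes.

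The promoters of other IkB genes differed in their calls. Nfkbid encodes a nuclear IkB protein, and the region over its downstream promoter (chr7:30422925-30423517) stood at 7.28, 7.11 and 7.55 CPM in WT and 9.44, 9.69 and 9.84 CPM in KO LT-HSC. It rose by 0.40 ± 0.09 on the log2 scale in LT-HSC (adjusted p = 0.0112), and by 0.32 ± 0.09 (adjusted p = 0.0222) in MPP cells. The LT-HSC call was lost with the gene-end covariate, where adjusted p reached 0.106. Nfkbie encodes IkB epsilon, and its promoter region (chr17:45555415-45555913) stood at 29.0, 27.2 and 24.9 CPM in WT MPP and 34.4, 31.8 and 36.1 CPM in KO MPP, without overlap. The log2 fold change there was 0.33 ± 0.07 (adjusted p = 0.00422, and 0.19 with the covariate). A weaker Nfkbie region upstream of it (chr17:45554415-45554856) was higher in both populations, by 0.65 ± 0.19 on the log2 scale in LT-HSC (adjusted p = 0.0478), and by 0.65 ± 0.13 (adjusted p = 0.002, and 0.0893 with the covariate) in MPP cells.

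Nfkbia encodes IkB alpha, an inhibitor that NF-kB itself induces. Its promoter region (chr12:55492353-55492827) stood at 28.4, 29.7 and 30.1 CPM in WT and 28.5, 27.8 and 29.5 CPM in KO LT-HSC, so the genotypes overlapped. It was not called in either population (adjusted p = 0.784 and 0.242). At the other end of the gene, a region (chr12:55488627-55489094) stood at 2.06, 2.19 and 2.06 CPM in WT and 3.47, 2.90 and 3.21 CPM in KO LT-HSC, a log2 fold change of 0.61 ± 0.15 (adjusted p = 0.0137). This call was lost with the gene-end covariate or without KO LT-HSC library 1, with adjusted p up to 0.153. A region 25489 bp upstream of Nfkbia was lower in KO LT-HSC, at 1.95, 2.22 and 2.52 CPM in WT and 1.62, 1.27 and 1.16 CPM in KO. Its log2 fold change was -0.69 ± 0.20, with an adjusted p of 0.0363. Bcl3, a nuclear IkB relative, had 1 region called higher in both populations, 1607 bp upstream of a start, with log2 fold changes of 0.37 in LT-HSC and 0.28 in MPP. Its LT-HSC call was lost in 5 alternatives, among them those with the covariate and without WT LT-HSC library 3 or KO LT-HSC library 2 or 3.

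Tnfaip3 encodes A20, a ubiquitin-editing enzyme that ends TNF signalling. Of its 34 regions, 4 were higher in KO LT-HSC and 8 in KO MPP, and none was lower. The promoter region (chr10:19015163-19015601) stood at 36.3, 37.2 and 34.5 CPM in WT and 46.3, 42.0 and 44.0 CPM in KO LT-HSC, and at 55.1, 53.1 and 45.8 CPM in WT and 62.5, 60.6 and 63.0 CPM in KO MPP. The groups did not overlap in either population. In LT-HSC the log2 fold change was 0.29 ± 0.07 (adjusted p = 0.00801), while MPP cells had 0.27 ± 0.06 (adjusted p = 0.00705). Both calls were lost with the gene-end covariate (adjusted p = 0.265 at most in LT-HSC and 0.293 in MPP), and that in LT-HSC also without KO LT-HSC library 1.

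Regions far from the Tnfaip3 start were called too. One lay 47076 bp upstream of it (chr10:19062090-19062882), at 19.6, 18.2 and 22.9 CPM in WT and 29.3, 26.6 and 27.1 CPM in KO LT-HSC. It rose by 0.45 ± 0.08 on the log2 scale (adjusted p = 0.00142) and the call held under each alternative run. The assignment within 10 kb, used for the counts alone, was not applied to it. The same region stood at 54.0, 47.2 and 47.8 CPM in WT MPP and 60.2, 55.1 and 49.1 CPM in KO MPP, where the genotypes overlapped and it was not called (adjusted p = 0.259). On the downstream side, 70320 bp from the start (chr10:18941407-18941880), a region stood at 5.96, 6.32 and 5.51 CPM in WT MPP and 8.75, 8.69 and 8.03 CPM in KO MPP. Its log2 fold change was 0.51 ± 0.10 in MPP (adjusted p = 0.00186, held under each alternative run) and 0.36 ± 0.10 in LT-HSC (adjusted p = 0.0348). Inside the gene, a weak region 9749 bp from the start had 0.626, 0.417 and 0.474 CPM in WT MPP and 1.05, 1.16 and 1.05 CPM in KO MPP (log2 fold change 1.11 ± 0.25, adjusted p = 0.00568, and 0.0687 with the covariate).

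Nfkbiz encodes IkB zeta, a nuclear IkB protein that acts as a coactivator of secondary response genes. Of its 30 regions, 7 were higher and 1 lower in KO LT-HSC, and 3 were higher and 1 lower in KO MPP. A gene-end region (chr16:55838692-55839152) stood at 11.8, 12.9 and 12.8 CPM in WT and 17.8, 17.7 and 15.5 CPM in KO LT-HSC, and at 10.8, 10.9 and 10.7 CPM in WT and 14.5, 15.7 and 14.5 CPM in KO MPP. No KO library reached down to a WT library. The difference on the log2 scale was 0.45 ± 0.08 for LT-HSC (adjusted p = 0.0017) against 0.46 ± 0.08 for MPP (adjusted p = 0.000749), and both calls held under each alternative run.

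The largest called changes at Nfkbiz were at weaker regions. At the opposite end of the gene (chr16:55810098-55810611), LT-HSC libraries held 1.29, 1.60 and 2.52 CPM in WT and 3.50, 5.34 and 3.03 CPM in KO. MPP libraries held 0.752, 0.729 and 1.01 CPM in WT and 1.98, 1.78 and 1.78 CPM in KO. All KO values lay above all WT values of the same population, with log2 fold changes of 1.14 ± 0.20 (adjusted p = 0.00121) and 1.17 ± 0.25 (adjusted p = 0.00304), held under each alternative run. An intergenic region (chr16:55750024-55750435) went the other way in both populations. It had 0.459, 0.421 and 0.637 CPM in WT LT-HSC and 0.193, 0.0707 and 0.178 CPM in KO LT-HSC. In MPP it had 2.36, 1.77 and 2.40 CPM in WT and 1.13, 1.14 and 1.48 CPM in KO. The log2 fold changes were -1.74 ± 0.41 (adjusted p = 0.0118) and -0.78 ± 0.20 (adjusted p = 0.0155). The LT-HSC call was lost with the covariate and without WT LT-HSC library 3 or KO LT-HSC library 2 (adjusted p up to 0.0855).

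**Figure D2:**
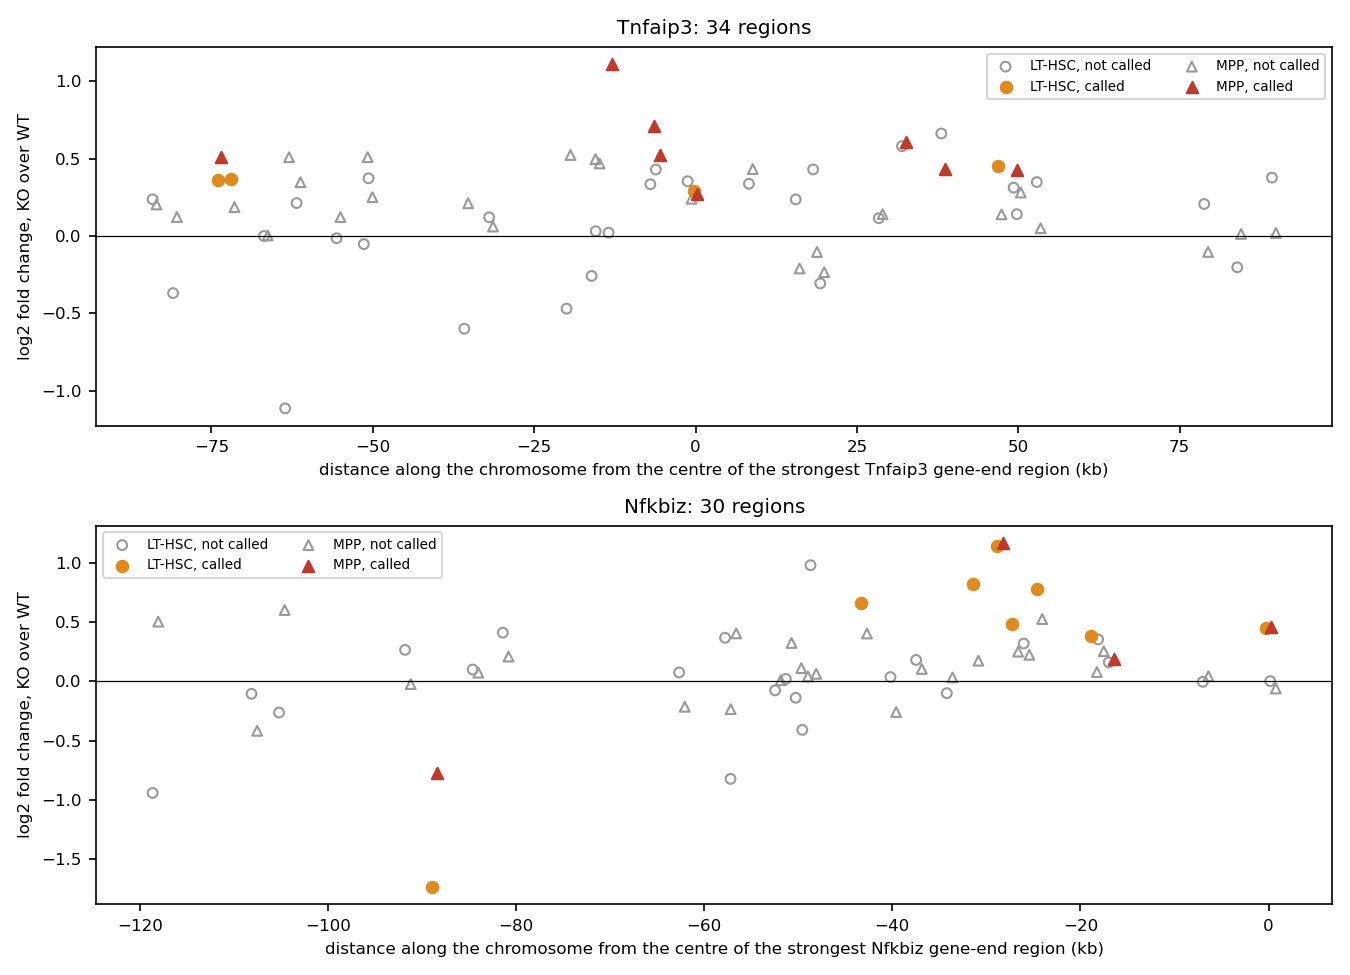
Log2 fold changes of KO over WT at the 34 Tnfaip3 regions (top) and 30 Nfkbiz regions (bottom), against distance in kb along the chromosome from the strongest gene-end region, with circles for LT-HSC and triangles for MPP. Filled symbols are called at an adjusted p under 0.05. At Tnfaip3 they lie above 0 on both sides of the gene, and at Nfkbiz the 7 higher LT-HSC calls lie within the gene or near it while 1 region called in both populations lies below 0.

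Tnip1 and Tnip2 encode A20-binding inhibitors. Tnip2 had its promoter region called higher in LT-HSC (log2 fold change 0.24 ± 0.07, adjusted p = 0.0427), a call that was lost in 12 alternatives, with adjusted p up to 0.499. Leaving out any 1 of the 6 LT-HSC libraries, or KO MPP library 2, ended it. A region 1111 bp upstream of the Tnip2 start stood at 3.78, 3.00 and 2.84 CPM in WT MPP and 4.75, 5.55 and 6.09 CPM in KO MPP, without overlap (log2 fold change 0.77 ± 0.14, adjusted p = 0.00104, and up to 0.065 with the covariate).

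The NF-kB subunits showed fewer calls, and they fell on Rel, Nfkb1 and Nfkb2. The Rel promoter region (chr11:23770940-23771603), of the gene for c-Rel, stood at 35.2, 38.8 and 33.9 CPM in WT and 46.2, 41.5 and 40.8 CPM in KO LT-HSC. In MPP it stood at 55.7, 50.2 and 46.7 CPM in WT and 61.7, 61.3 and 63.4 CPM in KO, so that neither population overlapped by genotype. The log2 fold change was 0.29 ± 0.07 in MPP (adjusted p = 0.00625, lost only with the covariate, at 0.31) and 0.25 ± 0.07 in LT-HSC (adjusted p = 0.0268). The LT-HSC call was lost in 8 alternatives, with adjusted p up to 0.518, including those without WT library 1 or 3 or KO library 1 or 2.

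Nfkb1, which encodes the p105 precursor of p50, had 48 regions, of which 2 were higher in KO LT-HSC, and 4 were higher and 1 lower in KO MPP. The region at chr3:135607075-135607580 was called higher in both, with log2 fold changes of 0.40 ± 0.11 (adjusted p = 0.0354) and 0.38 ± 0.12 (adjusted p = 0.0426). Another inside the gene (chr3:135608032-135608531) stood at 8.83, 8.96 and 7.84 CPM in WT and 12.8, 12.8 and 11.8 CPM in KO LT-HSC. It rose by 0.55 ± 0.09 on the log2 scale (adjusted p = 0.000661), the call held under each alternative run, and the same region was not called in MPP (0.21 ± 0.09, adjusted p = 0.117). Nfkb2, which encodes the p100 precursor of p52, had its promoter region (chr19:46304311-46304828) at 52.5, 55.4 and 47.6 CPM in WT MPP and 62.6, 60.4 and 65.3 CPM in KO MPP. It was called in MPP (0.27 ± 0.06, adjusted p = 0.00469, and 0.142 with the covariate) and not in LT-HSC (adjusted p = 0.217). Rela and Relb, which encode the subunits RelA and RelB, had 3 regions each and no called one. With so few regions, no difference from the other subunits is shown. The Rela promoter region stood at 31.6, 35.0 and 32.1 CPM in WT and 34.3, 33.4 and 31.8 CPM in KO LT-HSC, overlapping.

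Among adaptors, ligases and kinases, called regions were spread over several genes. Cflar encodes c-FLIP, which blocks caspase-8 downstream of TNF receptors, and 2 of its regions were higher in both populations. The one 1014 bp from a gene start (chr1:58712123-58712887) stood at 12.5, 12 and 13.5 CPM in WT and 15.2, 16.7 and 18.3 CPM in KO LT-HSC. In MPP it stood at 18.7, 18.2 and 17.7 CPM in WT and 21.0, 23.3 and 24.1 CPM in KO, and neither population overlapped. The log2 fold changes were 0.39 ± 0.08 (adjusted p = 0.00593) and 0.33 ± 0.08 (adjusted p = 0.00825). Both were lost with the covariate, and the MPP call also without KO MPP library 2 or 3, at adjusted p up to 0.0506 and 0.0642. The Cflar promoter region itself was not called, with log2 fold changes of 0.22 and 0.11.

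The cellular inhibitor of apoptosis Birc3, a ubiquitin ligase of the receptor complex, had a gene-body region (chr9:7868800-7869509) at 5.53, 5.65 and 4.92 CPM in WT and 8.12, 7.5 and 7.48 CPM in KO LT-HSC. Its log2 fold change was 0.52 ± 0.11 (adjusted p = 0.00666, and 0.164 with the covariate), and the groups did not overlap. Ripk1, the scaffold kinase of the complex, had its promoter region at 50.3, 51.9 and 45.5 CPM in WT MPP and 60.7, 60.1 and 57.8 CPM in KO MPP (0.27 ± 0.06, adjusted p = 0.00595, and 0.195 with the covariate), and that region also overlaps Serpinb6a. Traf1, an adaptor that is itself induced by NF-kB, had 3 regions higher in MPP and none in LT-HSC. The Traf1 gene-body region at chr2:34957966-34958449 stood at 3.28, 3.71 and 4.50 CPM in WT MPP and 5.45, 5.70 and 5.47 CPM in KO MPP (0.55 ± 0.13, adjusted p = 0.00826). That call was lost without WT MPP library 1, at adjusted p = 0.0595. The IkB kinase genes Ikbkb and Ikbke, and the adaptors Tradd and Traf2, had no called region in either genotype comparison.

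Of the other induced genes, Tnfaip2, Tnfaip8 and Socs3 carried the higher calls in LT-HSC, and Tnfaip2, Tnfaip8 and Icam1 those in MPP. A region 4922 bp upstream of Tnfaip2 (chr12:111437513-111437966), a TNF-induced gene, stood at 9.22, 7.63 and 8.73 CPM in WT MPP and 12.8, 12.6 and 13.2 CPM in KO MPP. The 3 KO values were close together and all above WT. The log2 fold change was 0.59 ± 0.10 (adjusted p = 0.000464), held under each alternative run with adjusted p up to 0.00904. In LT-HSC the same region stood at 11, 9.33 and 9.35 CPM in WT and 11.6, 11 and 14.3 CPM in KO and was not called (0.31 ± 0.10, adjusted p = 0.0736). Socs3, a suppressor of cytokine signalling, had 2 regions higher in LT-HSC and 1 lower in MPP. The lower one, 15066 bp from the start, stood at 21.7, 24.5 and 23.0 CPM in WT MPP and 19.8, 18.8 and 16.7 CPM in KO MPP (-0.33 ± 0.10, adjusted p = 0.0344). Icam1, the adhesion molecule, had 1 region higher in MPP (0.40 ± 0.11, adjusted p = 0.0199).

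The ligand genes Tnf, Lta and Ltb lie side by side and had 8 regions, none of which was higher in KO cells of either population. Among all tested regions 3.28% were higher in KO LT-HSC and 5.08% in KO MPP, and 8 regions are too few to show a lower share. The Tnf promoter region (chr17:35201781-35202276) stood at 6.08, 5.59 and 5.93 CPM in WT and 6.66, 6.26 and 5.30 CPM in KO LT-HSC, overlapping. The 1 call was in the Tnf gene body (chr17:35200433-35200871), which fell from 20.1, 21.6 and 20.3 CPM in WT MPP to 17.9, 17.9 and 16.0 CPM in KO MPP (-0.26 ± 0.08, adjusted p = 0.0382). Among the 31 regions of the receptor genes, 1 at Tnfrsf1b (TNF receptor 2) was higher in LT-HSC (0.78 ± 0.23, adjusted p = 0.0413) and 1 at Tnfrsf1a (TNF receptor 1) in MPP (0.34 ± 0.11, adjusted p = 0.0405). This is 3.23% in each population, not above the 3.28% and 5.08% of all tested regions. The promoter regions of both these receptors were not called, and Cd40 had no called region.

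**Figure D3:**
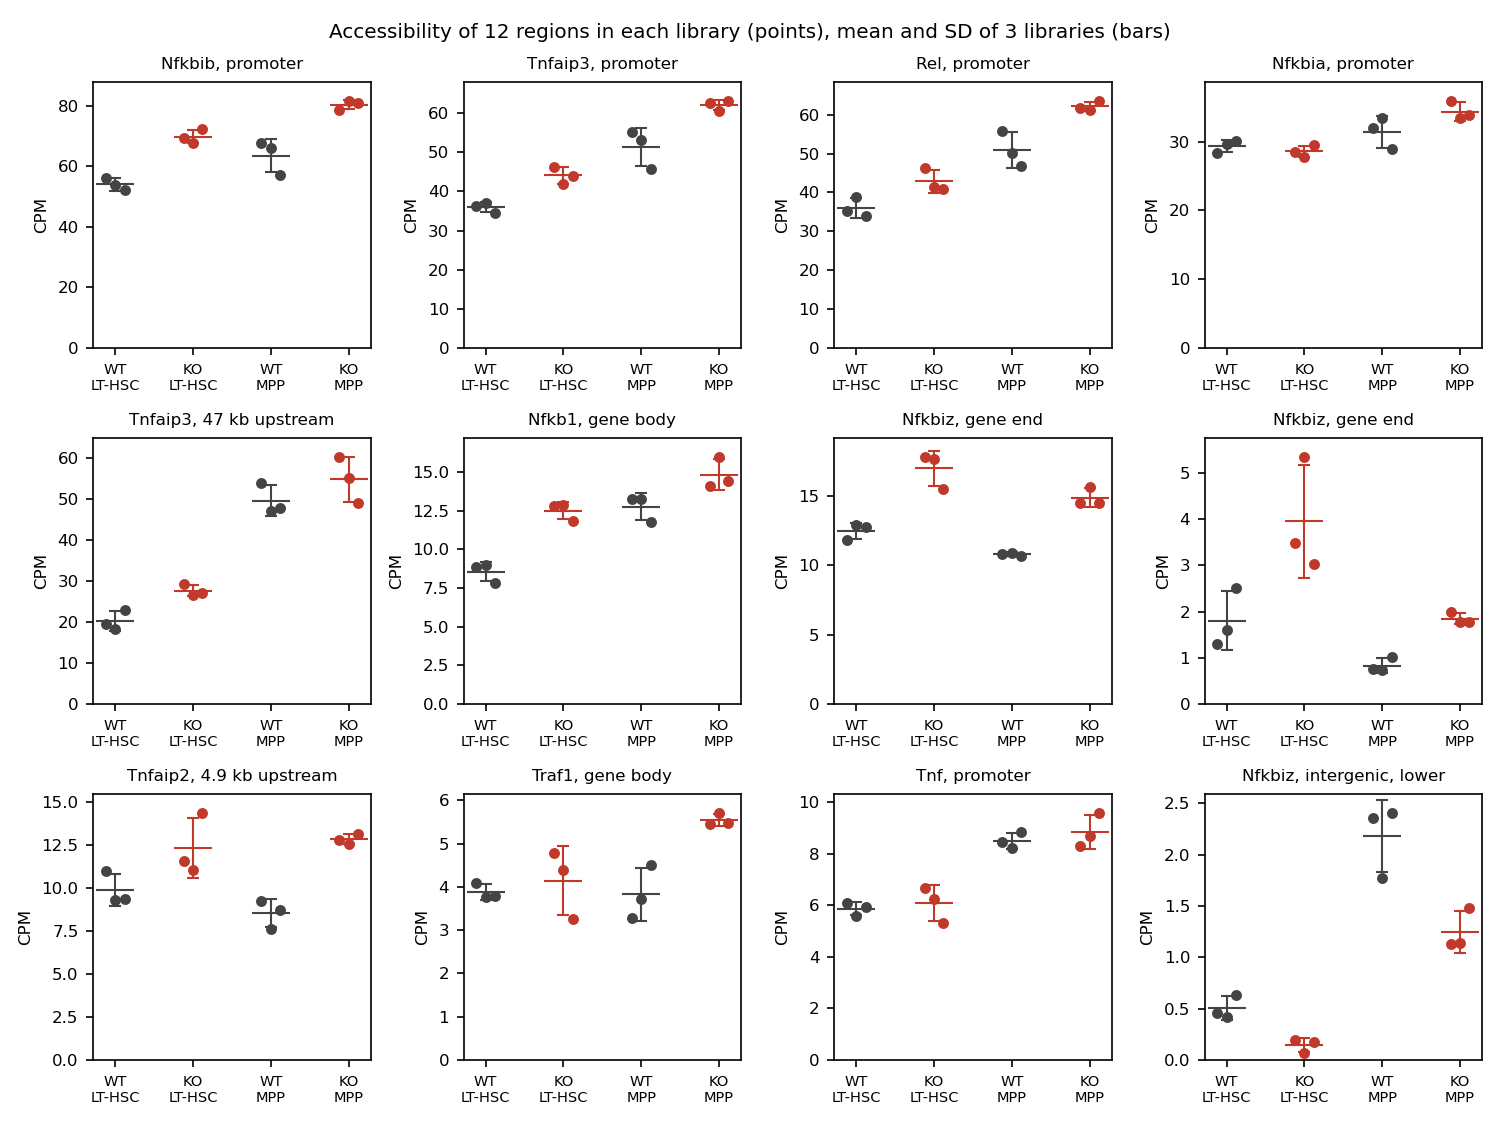
Accessibility in CPM (vertical axis, from 0) of 12 regions in each of the 12 libraries, black for WT and red for KO, with the mean and SD of each group of 3. The Nfkbib, Tnfaip3 and Rel promoter regions and both Nfkbiz gene-end regions separate KO from WT in both populations, the Nfkbia and Tnf promoter regions overlap in LT-HSC, and the intergenic Nfkbiz region is lower in KO.

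Regions called in both populations had the same direction in both. Of the regions called higher, 15 were called in both, which is 42.9% of the 35 in LT-HSC and 34.9% of the 43 in MPP. These 15 lie in 11 genes. The same overlap was not counted over all tested regions, so these shares are not shown to be particular to the list. The intergenic Nfkbiz region was the 1 called lower in both, and no region was called in opposite directions. LT-HSC and MPP libraries of the same number may come from 1 mouse, so these are not shown to be independent.

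No member region passed the test of a difference between the genotype effects in MPP and LT-HSC. The edgeR interaction test called 0 of 467 regions, with 26 at an unadjusted p under 0.05, and called 0.00805% of all tested regions. DESeq2 also called 0, with 19 at an unadjusted p under 0.05 and an adjusted p given for 200 of the 467. The lowest p values were at an Nfkb1 region (interaction 1.31 ± 0.40, adjusted p = 0.446), the weak Tnfaip3 gene-body region (1.09 ± 0.34, adjusted p = 0.453) and the Tnfaip2 promoter region (0.37 ± 0.12, adjusted p = 0.485). The Tnfaip2 promoter region stood at 18.3, 20.4 and 16.2 CPM in WT and 16.7, 14.7 and 15.3 CPM in KO LT-HSC, and at 17.8, 19.5 and 16.4 CPM in WT and 20.0, 19.1 and 20.3 CPM in KO MPP. A call in 1 population alone, as at the Nfkb1 gene-body region or upstream of Tnfaip2, is therefore not shown to be a difference between populations.

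**Figure D4:**
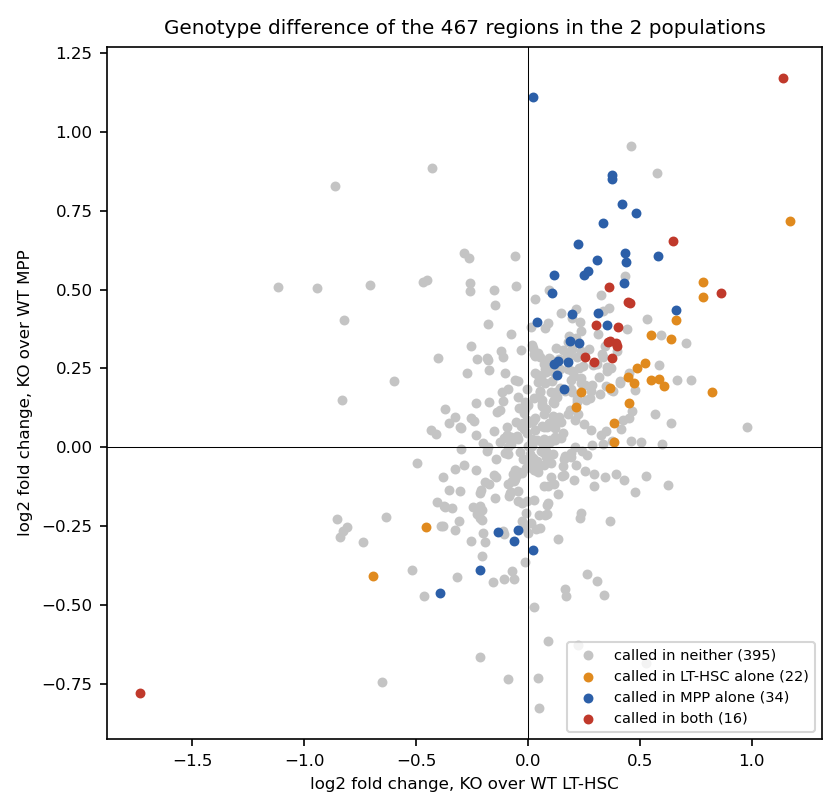
Log2 fold change of KO over WT in LT-HSC (horizontal) against MPP (vertical) for the 467 regions, coloured by whether a region was called in neither, 1 or both populations. The 16 regions called in both lie above 0 on both axes (15) or under 0 on both (1).

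Between the populations themselves, WT MPP differed from WT LT-HSC at most of these regions. By the same edgeR test 224 of the 467 regions were higher in MPP (48.0%, against 34.6% of all tested) and 110 were lower (23.6%, against 35.1%). The median log2 fold change was 0.20, against 0.0061 over all tested regions. Of the 37 genes, 36 had a region higher in MPP, the exception being Tradd, and 22 had a region lower. The ligands had 6 of 8 regions higher and 1 lower, the receptors 16 and 2 of 31, the inhibitors and regulators 59 and 23 of 115, the subunits 31 and 19 of 67, and the adaptors and kinases 69 and 41 of 148.

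Some of the regions with the largest gains were nearly closed in LT-HSC. Upstream of Tnfaip3, a region at 38350 bp had 0.115, 0.281 and 0.232 CPM in WT LT-HSC and 4.48, 4.02 and 3.55 CPM in WT MPP (log2 fold change 4.25 ± 0.23, adjusted p = 9.63e-17). In the gene body of Ikbkb, which encodes the catalytic kinase IKK beta, a region (chr8:22698100-22698506) had 0.143, 0.421 and 0.203 CPM in LT-HSC and 4.43, 6.07 and 2.88 CPM in MPP (4.13 ± 0.29, adjusted p = 5.1e-14). The Nfkbia region at the far end of the gene, higher also in KO than in WT LT-HSC, rose from 2.06, 2.19 and 2.06 CPM to 19.8, 23.2 and 16.8 CPM (3.25 ± 0.12, adjusted p = 6.1e-21). In each case every MPP library was above every LT-HSC library, which the rule for naming these regions required.

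Other regions were more open in LT-HSC. Within Tnfaip8, a region had 4.82, 3.93 and 3.39 CPM in WT LT-HSC and 0.727, 0.813 and 1.01 CPM in WT MPP (-2.27 ± 0.18, adjusted p = 5.78e-13). Within Traf3, which encodes a restraining adaptor of the noncanonical arm, 1 region (chr12:111225163-111225622) was lower in MPP, at 16.8, 17.6 and 16.0 CPM in LT-HSC and 3.98, 4.54 and 4.19 CPM in MPP (-1.98 ± 0.10, adjusted p = 5.27e-18). Another Traf3 region (chr12:111192734-111193212) went up from 0.201, 0.590 and 0.550 CPM to 3.46, 5.13 and 3.15 CPM (3.14 ± 0.24, adjusted p = 4.26e-13). Single genes of the list therefore held regions moving both ways. The 8 higher and 8 lower regions with the largest changes kept their calls under each alternative run.

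**Figure D5:**
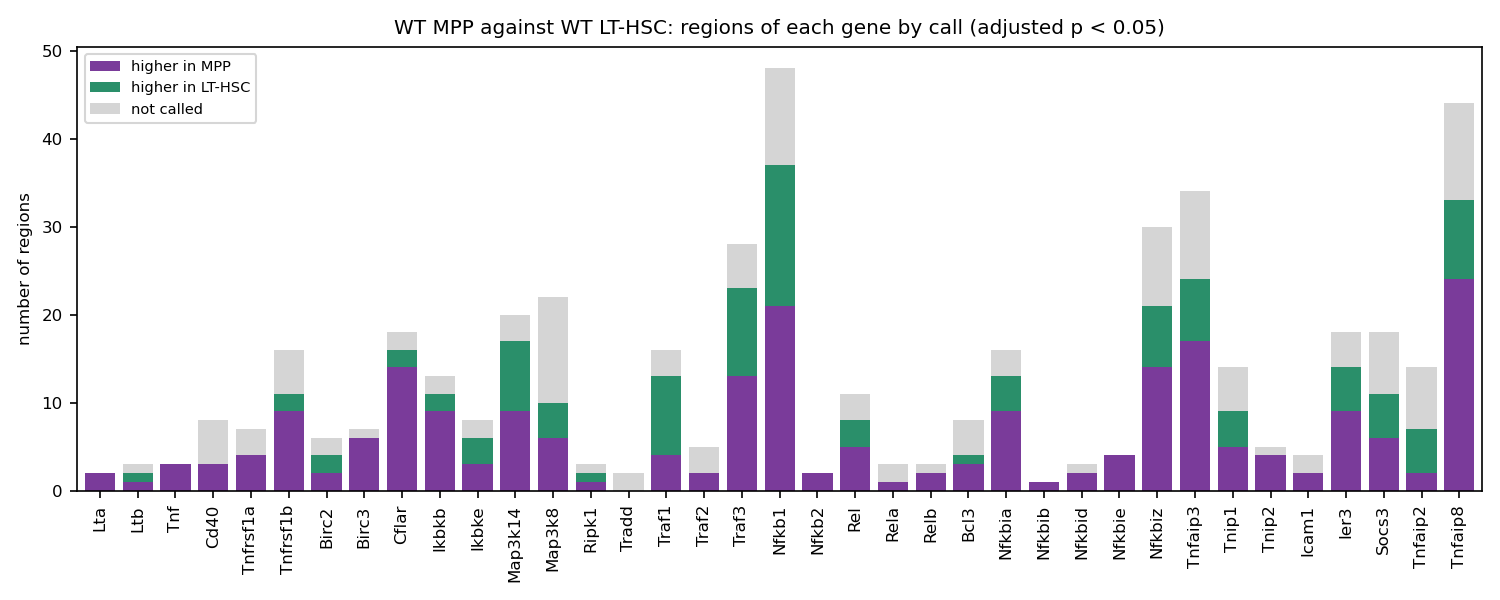
Number of regions of each of the 37 genes (bars, stacked) that were higher in WT MPP, higher in WT LT-HSC or not called, with genes ordered by role. Higher-in-MPP regions make up 224 of the 467, and Nfkb1, Traf3, Tnfaip3 and Tnfaip8 hold regions of both directions.

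Other genes of the pathway, from a separate list of 45 genes of which 43 had a region, stood nearer to the background. Of their 416 regions, 16 were higher in KO LT-HSC (3.85%, against 3.28% of all tested) and 4 lower (0.962%, against 1.47%). In KO MPP 29 were higher (6.97%, against 5.08%) and 10 lower (2.40%, against 3.61%). Their median log2 fold changes were 0.03 and 0.04. The following genes were picked for their low p after their values were seen. The single region of Rnf31, which encodes the HOIP subunit of the linear ubiquitin ligase, rose from 63.0 ± 2.78 to 78.6 ± 3.54 CPM (mean ± SD, n = 3) in LT-HSC, a log2 fold change of 0.32 ± 0.06 with adjusted p = 0.000941. Btg2, an antiproliferative early response gene, had 3 of 9 regions higher in LT-HSC and 4 of 9 in MPP. An intergenic region near Cebpb, which encodes a myeloid transcription factor, rose from 5.89 ± 0.740 to 9.99 ± 0.816 CPM in MPP (0.78 ± 0.10). At the end of the Cebpb gene, another region fell from 10.2 ± 0.959 to 7.31 ± 0.731 CPM in LT-HSC (-0.47 ± 0.10, adjusted p = 0.00427). The count of 16 in LT-HSC became 10 without WT LT-HSC library 1, KO library 1 or KO library 2, and 9 without WT library 2. The count of 29 in MPP became 19, 15 and 13 without WT MPP library 2, KO library 2 and KO library 3.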

How the data were processed

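The authors deposited unnormalized read counts for a union set of 188262 accessible regions in all 12 libraries. Per the submitters' processing notes, the build was GRCm38 and the tools included Bowtie2, cutadapt, featureCounts, MACS2 2.1.1 and DESeq2 1.22.1, without order or settings. Counts were scaled by TMM and fitted over 4 groups with edgeR 4.0.16 (R 4.3.3) quasi-likelihood tests, after a filter on low counts that left out 1889 regions, and p-values were adjusted by Benjamini-Hochberg over the 186373 tested. Called means an adjusted p under 0.05, and ± after a log2 fold change is its standard error. The biological coefficient of variation was 8.17%. The test was checked on simulated data. Regions were assigned with RefSeq genes of GRCm38.p6. Motifs were searched in the RefSeq windows on both strands.

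The regions named were the strongest gene-end region of each gene, the 25 called regions of lowest p in each genotype comparison (all if fewer), the 8 higher and 8 lower regions of largest change between populations with a mean above the median (1.83 CPM) and no overlap, and the 3 of lowest p for the interaction. Other regions named beside them were chosen after their values were seen. The members and lists were chosen with earlier results of these data known. Alternatives were DESeq2 1.42.0, other scalings, filters, thresholds and assignment, a gene-end covariate, a replicate block and each library left out. The stricter threshold and the tighter assignment were applied to the counts alone, so the alternatives run for a named region leave them out. Named regions away from gene ends were also not in the fit on gene-end regions alone. Same-numbered WT LT-HSC and WT MPP libraries deviated together weakly (correlations 0.102, 0.131 and 0.157), as did KO ones (0.0771, 0.0808 and 0.0817). The numbers may therefore pair the samples, but this is not shown, and the main fit treated them as unpaired. For WT MPP against WT LT-HSC, the blocked fit changed no call count by over 1.5 times.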

Additional observations from a re-analysis of the deposited data

How the results depend on the processing

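For the genotype comparisons, the direction of every named region that was called held under each alternative run, and 5 of 26 named calls in LT-HSC and 5 of 25 in MPP were kept under all of them. Including the gene-end share as a covariate lost 20 and 17, leaving out 1 library lost 18 and 11, and the replicate block lost 0 and 0. Of the 2966 values of named regions under alternatives, 132 lost their call and 21 gained one. All 16 named calls between populations were kept.

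With the gene-end covariate, regions of the list called higher numbered 7 in KO LT-HSC and 10 in KO MPP, those lower 0 and 1, those lower in WT MPP than WT LT-HSC 66, and other pathway regions higher 7 and 9. Among gene-end regions alone, where by construction fewer regions enter, the counts were 9 and 11 higher, 1 and 3 lower, 36 higher and 19 lower in WT MPP, and 4 and 8 other pathway regions. Scaling by library totals gave 20 higher and 5 lower in LT-HSC and 10 other pathway regions. A loess offset gave 21 higher and 10 other pathway regions in LT-HSC. DESeq2 gave 1 lower in LT-HSC. At an adjusted p under 0.01 there were 10 and 19 higher, 0 and 0 lower, and 5 and 11 other pathway regions. Keeping regions within 10 kb of the gene body left 0 and 3 lower. Without WT library 2 of both populations, 21 were higher and 1 lower in LT-HSC, 1 was lower in MPP, and 10 other pathway regions were higher in LT-HSC. Beyond fewer regions, fewer samples or a stricter threshold, the cause was not tested.

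Leaving out 1 library at a time gave 14 to 37 regions higher and 0 to 4 lower in KO LT-HSC, 21 to 50 higher and 0 to 7 lower in KO MPP, and 9 to 15 and 13 to 33 other pathway regions higher. Between populations it gave 207 to 224 higher and 97 to 112 lower in WT MPP.

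In the genotype comparisons, same-numbered WT and KO libraries did not deviate together (correlations from -0.039 to 0.051), so they share only a number. With the replicate block the counts were 37 higher and 3 lower in LT-HSC, 47 higher and 6 lower in MPP, and 0 for the interaction. A replicate block within genotype, added after seeing the data, gave 227 higher and 122 lower in WT MPP against WT LT-HSC and 0 for the interaction. The planned block within population was not run for WT MPP against WT LT-HSC, since such blocks are nested in the populations compared. A fit of the compared groups alone gives no interaction.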
